A study of Danio rerio with 6 samples.

Results

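The genes described here are the AP-1 and early response transcription factors of the adult zebrafish inner ear: fosab, fosb, fosl1a, fosl2, jun, junba, junbb, jund, atf3 and egr1. They were found by their symbol in the deposited table, and all 10 were present among its 31701 Ensembl genes. RNA-seq was performed on hair cells and on non-sensory surrounding cells (nsSCs), with 3 samples of 1000 individually collected cells for each cell type. The hair cells were GFP-positive and carried a visible bundle, while the nsSCs had no GFP and no bundle. Every sample came from adult female fish of the strain Tg(pou4f3:GAP-GFP)s273t, 11 to 13 months old, in which the pou4f3 promoter drives GFP. Each sample pooled the cells of several fish and of the lagena, utricle and saccule, so that the organs cannot be told apart. The tissue of both cell types was digested with collagenase and triturated before the cells were picked. All values are RPKM, in which the reads of a gene are divided by the length of its transcript and scaled to the mapped reads of the sample.

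AP-1 is a dimer of leucine zipper proteins in which a Fos protein pairs with a Jun protein, or Jun proteins pair with each other. Several genes of this family, though not all, are among the first to be transcribed after a stimulus, with no need for new protein. Such a stimulus can be a growth factor, membrane depolarization or stress. The mRNAs of these early genes are short-lived, and dissociation of a tissue into single cells is itself known to induce them in many cell types. atf3 encodes a leucine zipper factor of the stress response that can pair with Jun proteins, and egr1 a zinc finger factor that is induced through the MAP kinase cascade.

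The samples differed in their totals. The RPKM values summed to 704199 to 713194 in the hair cell samples and to 976739 to 1012812 in the nsSC samples, and 17308 to 18936 genes were above 0 in hair cells against 22021 to 22470 in nsSCs. Of 19 hair cell marker genes, 19 were higher in hair cells. One of these is pou4f3, the promoter of which marked the cells, so that this is a check of the collection and no finding. The nsSCs were a mixture, in which keratin and other epithelial genes and genes of connective tissue, leukocytes, red blood cells and glia were all measured. Of 18 tested supporting cell marker genes, 12 passed the test as higher in hair cells and 4 as higher in nsSCs. These shares were 66.7% and 22.2%, beside 31% and 35.4% of all tested genes. The list summed to 2893 to 2932 RPKM in hair cells and 3225 to 3243 RPKM in nsSCs. Most of both sums was glula and glulb, with means of 1670 and 163 RPKM in hair cells, against 916 and 1596 RPKM in nsSCs. glula was not called, and glulb was called higher in nsSCs. In such pooled samples, fewer cells that express a gene and less of its RNA per cell cannot be told apart. No coordinates are given, because the reference list used for names is of another assembly than the GRCz10 build of the table, and sequences were not used here.

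Of the 10 genes, 9 were higher in hair cells than in nsSCs and none was higher in nsSCs. A gene was called when limma gave an adjusted p under 0.05 on log2(RPKM + 0.1) with a difference of 2-fold or more. Adding 0.1 makes the fold of low genes too small. All 10 passed the filter of a mean of at least 0.1 RPKM, and their lowest means were 4.43 RPKM in hair cells against 1.83 RPKM in nsSCs. Among all 22374 genes tested, 31% were called higher in hair cells and 35.4% higher in nsSCs, together 66.4%. The median log2 fold change was 2.96 over the 10 genes and -0.0004 over all tested genes. In 9 of the 10 genes all 3 hair cell samples lay above all 3 nsSC samples, against 42.5% of the tested genes, and the cell types were separate in either direction in 85.1% of the tested genes. On the deposited RPKM all 10 estimates were positive, the lowest a log2 fold change of 0.15 for fosl2. No test result toward nsSCs was thus possible.

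**Figure D1:**
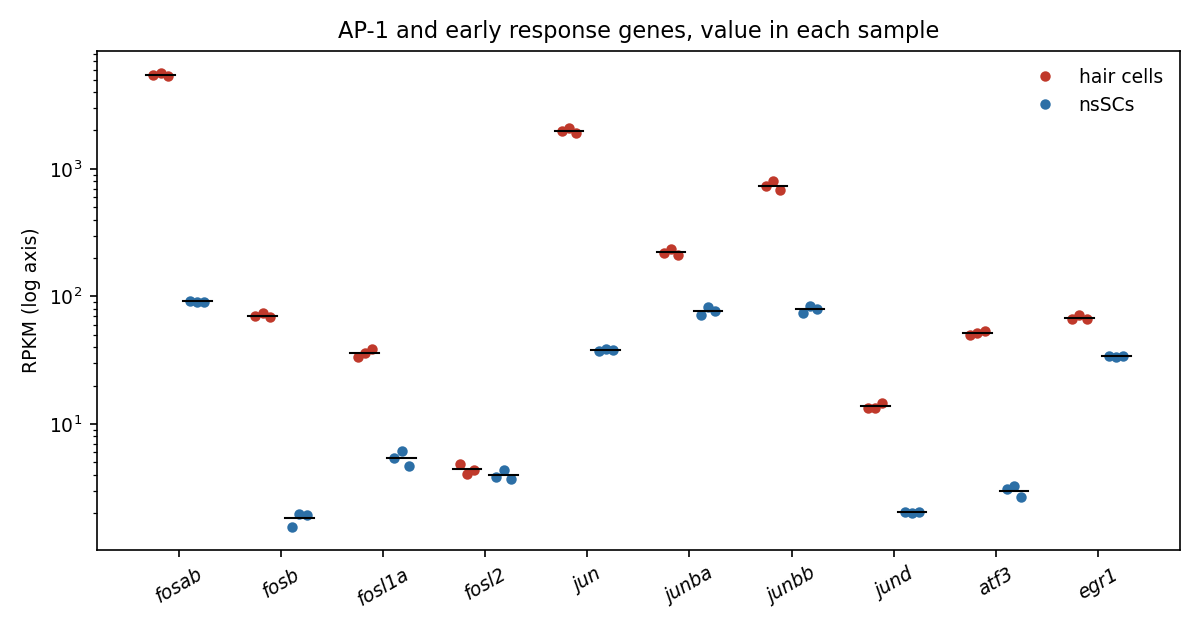
RPKM (log axis) of the 10 genes in each of the 3 hair cell samples (red, left) and the 3 nsSC samples (blue, right), with black bars for the group means. fosab lies at 5376.19 RPKM or more in hair cells and at 91.99 RPKM or less in nsSCs, and fosl2 is the only gene of the 10 whose samples overlap.

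The Fos genes encode the partners that cannot pair among themselves and need a Jun protein to bind DNA. fosab, the zebrafish ortholog of FOS, was at 5410.46, 5589.36 and 5376.19 RPKM in replicates 1, 2 and 3 of hair cells, against 91.99, 91.16 and 91.14 RPKM in the nsSC replicates. The groups did not overlap, and the mean was 59.7-fold higher in hair cells (log2 fold change 5.90, standard error 0.03, adjusted p = 2.37e-10). By mean RPKM it was the 15th most abundant gene of hair cells and the 839th of nsSCs, where 31701 genes were ranked. It took up between 0.759% and 0.791% of the summed RPKM of a hair cell sample, against 0.0090% to 0.0094% in nsSCs.

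fosb, whose mammalian counterpart has a truncated splice form in neurons, showed the same direction at a lower level. It was at 69.69, 73.67 and 68.68 RPKM in hair cells, against 1.55, 1.99 and 1.95 RPKM in nsSCs, a log2 fold change of 5.20 (adjusted p = 2.29e-08, with a standard error of 0.11). fosl1a, the ortholog of the Fos-related antigen FOSL1, was at 33.57, 35.87 and 38.58 RPKM in hair cells, against 5.43, 6.19 and 4.67 RPKM in nsSCs. Its log2 fold change was 2.71 (standard error 0.11, adjusted p = 5.89e-07).

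fosl2 was the exception among the Fos genes. The ortholog of FOSL2 was at 4.84, 4.09 and 4.36 RPKM in hair cells, against 3.85, 4.37 and 3.73 RPKM in nsSCs, and the samples overlapped. Its log2 fold change of 0.15 had a 95% confidence interval of -0.12 to 0.42 (adjusted p = 0.257), so that a 2-fold difference lay outside the interval in either direction. The direction depended on the scaling of the samples. With median-ratio scaling, which lowered the median log2 fold change of all genes to -0.48, the value for fosl2 was -0.32 (adjusted p = 0.0289). With every sample scaled to the same total RPKM it was 0.63 (adjusted p = 0.00121). Both values were short of 2-fold.

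The Jun genes encode the partners shared by Fos-Jun and Jun-Jun dimers. jun, the ortholog of JUN, was at 1986.3, 2082.57 and 1919.99 RPKM in hair cells, against 37.14, 38.64 and 38.05 RPKM in nsSCs. This was a 52.6-fold difference with no overlap (log2 fold change 5.71, standard error 0.04, adjusted p = 9.42e-10). jun was the 37th most abundant gene of hair cells by mean RPKM and the 1854th of nsSCs.

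The orthologs of JUNB, which can act as a weaker activator than JUN in mammals, form a pair of paralogs whose samples were separate from each other in hair cells and overlapped in nsSCs. junbb was at 727.82, 799.58 and 683.86 RPKM in hair cells, against 74.72, 84.17 and 79.35 RPKM in nsSCs. junba was at 220.9, 236.92 and 212.01 RPKM in hair cells, against 71.82, 83 and 76.63 RPKM in nsSCs. The log2 fold change was 3.21 for junbb (standard error 0.07, adjusted p = 2.94e-08) and 1.53 for junba (standard error 0.07, adjusted p = 7.21e-07). The ratio of junbb to junba was thus 3.23 to 3.38 in the hair cell samples and 1.01 to 1.04 in the nsSC samples, and this ratio was not tested. How reads that match both paralogs were assigned is not given in the sources used here.

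jund, whose mammalian counterpart is expressed more steadily and less inducibly than the other Jun genes, was the lowest of the 4. It was at 13.3, 13.36 and 14.54 RPKM in hair cells, against 2.04, 2 and 2.05 RPKM in nsSCs (a log2 difference of 2.70, standard error 0.09, adjusted p = 1.58e-07).

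atf3 was higher in hair cells by a factor between those of the strongest and the weakest Jun genes. It was at 50.04, 51.62 and 53.63 RPKM in hair cells, against 3.09, 3.27 and 2.67 RPKM in nsSCs, a 17.2-fold difference (log2 fold change 4.06, standard error 0.09, adjusted p = 3.18e-08). egr1 was at 66.32, 70.94 and 66.71 RPKM in hair cells, against 34.21, 33.51 and 34.05 RPKM in nsSCs. Its samples did not overlap, but its log2 fold change of 1.00 (adjusted p = 9.52e-07, with a standard error of 0.05) lay at the 2-fold minimum. The call was lost without hair cell replicate 2 (log2 fold change 0.97) and without nsSC replicate 2 (0.99). With median-ratio scaling the value was 0.52 (adjusted p = 4.23e-05), short of 2-fold.

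**Figure D2:**
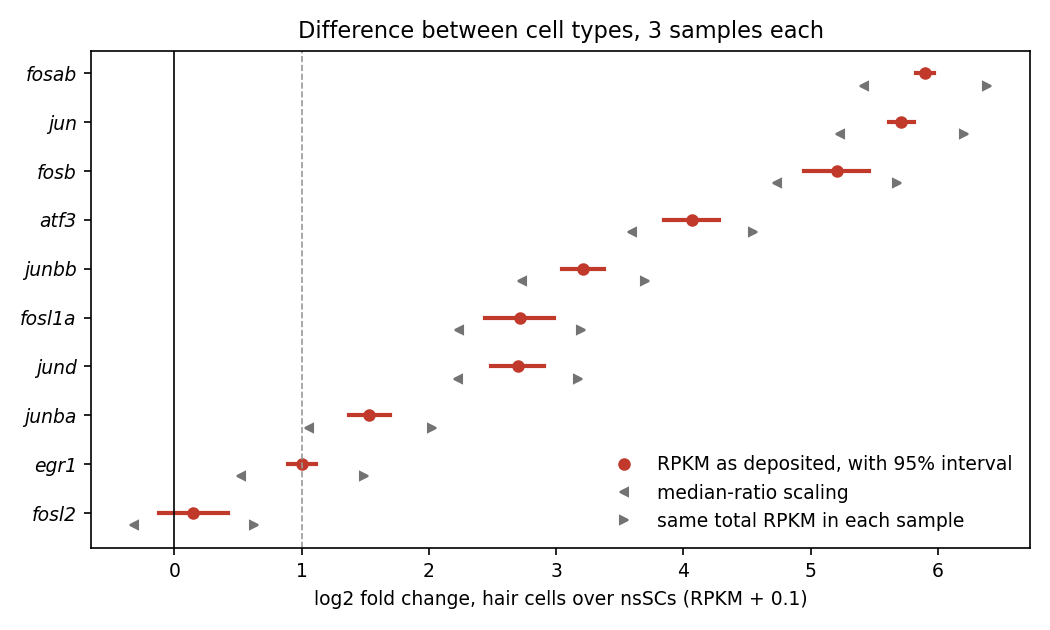
Log2 fold change of each gene, hair cells over nsSCs, with 3 samples of each. Red points and lines are the limma estimates on the deposited RPKM with 95% confidence intervals, grey triangles the estimates under 2 other scalings, and the dashed line marks 2-fold. The genes run from 5.90 for fosab to 0.15 for fosl2, and only fosl2 changes sign between scalings.

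The order of the genes by level was not the same in the cell types. In hair cells, fosab was followed by jun, junbb and junba, whose samples were separate from each other. fosb at 70.7 ± 2.64 RPKM (SD, n = 3) and egr1 at 68.0 ± 2.56 RPKM overlapped, and were followed by atf3, fosl1a, jund and fosl2. In nsSCs, fosab at 91.4 ± 0.485 RPKM (SD, n = 3) was followed by junbb at 79.4 ± 4.73 RPKM and junba at 77.2 ± 5.61 RPKM, which overlapped. jun came only after them, at 37.9 ± 0.756 RPKM, close above egr1 at 33.9 ± 0.367 RPKM. The other 5 genes lay between 5.43 and 1.83 RPKM in nsSCs, in the order fosl1a, fosl2, atf3, jund and fosb.

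The makeup of each family therefore differed between the cell types. In hair cells fosab supplied 98.0% of the summed RPKM of the 4 Fos genes (range 97.97% to 98.04%), and in nsSCs 89.1% (range 87.9% to 89.8%). fosl1a and fosl2 supplied 0.647% and 0.0796% in hair cells, against 5.28% and 3.88% in nsSCs. Among the Jun genes, jun supplied 67.2% in hair cells (range 66.48% to 67.83%) and 19.3% in nsSCs (range 18.59% to 20%). The largest share in nsSCs was that of junbb, at 40.4%, beside 39.2% for junba, while in hair cells these were at 24.8% and 7.52%. The shares within a sample do not change with its scaling.

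Summed over the families, the Fos genes were at 5570 ± 116 RPKM (SD, n = 3) in hair cells, against 103 ± 1.11 RPKM in nsSCs. The Jun genes were at 2970 ± 152 RPKM in hair cells, against 196.5 ± 11.1 RPKM in nsSCs. The Fos sum was thus above the Jun sum in hair cells, at 1.82 to 1.94 times, and below it in nsSCs, at 0.499 to 0.554 times. The ratio of fosab to jun alone was closer between the cell types, at 2.68 to 2.80 in hair cells and 2.36 to 2.48 in nsSCs. These sums are of transcripts and not of proteins or dimers, and they were not tested.

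**Figure D3:**
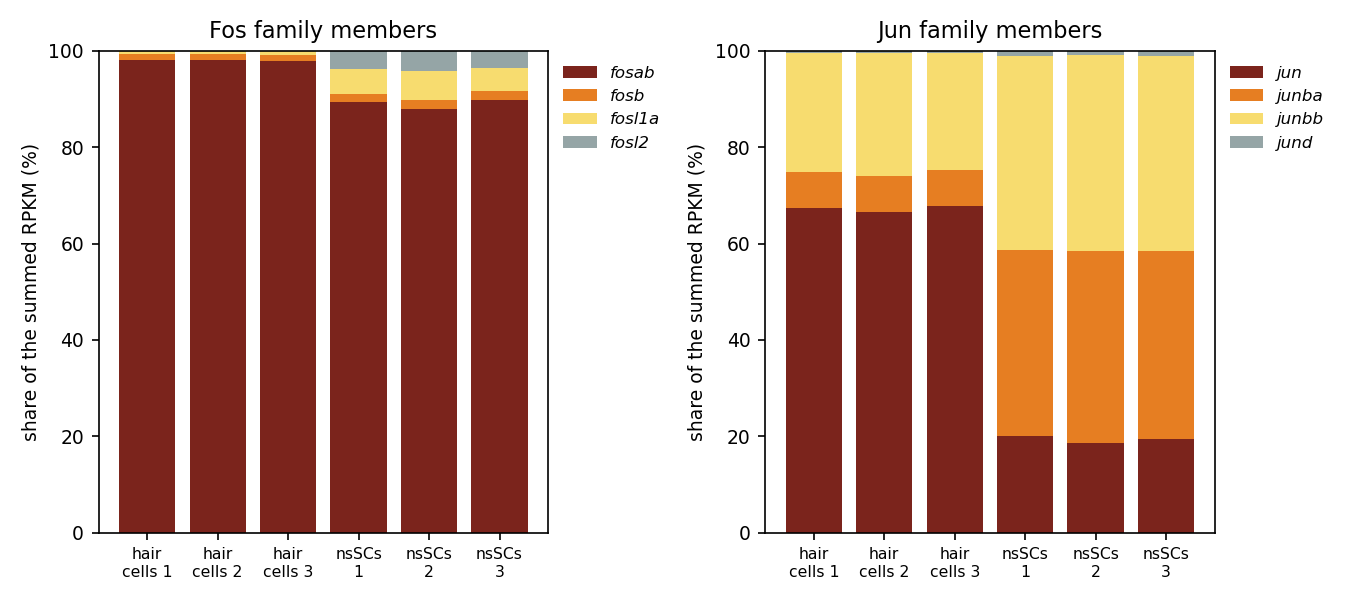
Share of the summed RPKM (%) of the 4 Fos genes (left panel) and the 4 Jun genes (right panel) in each hair cell sample and each nsSC sample. jun takes up 66.48% or more of the Jun bars in hair cells and 20% or less in nsSCs, where junba and junbb take up most of the bars.

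The replicates were close to each other. For the 9 genes of at least 10 RPKM in hair cells, the coefficient of variation over the 3 samples was 2.10% to 7.92% with a median of 4.09%, beside a median of 5.19% over 6295 genes of that level. For the 5 genes of at least 10 RPKM in nsSCs it was 0.530% to 7.27% with a median of 1.99%, beside 5.93% over 5082 genes. Hair cell replicate 2 had the highest value for 6 of the 10 genes (fosab, fosb, jun, junba, junbb and egr1), and it had the highest value for 35.1% of all genes of at least 10 RPKM. nsSC replicate 2 had the highest value for 7 of the 10 genes, and for 50.8% of all such genes.

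The table also holds other entries named as Fos or Jun genes, of which the highest of the 4 described here was AL929435.1. fosaa, a second ortholog of FOS, was at 1.69, 2.18 and 1.72 RPKM in hair cells and listed at 0 in all 3 nsSC samples. It passed the filter only through hair cells and had no spread in nsSCs, so that its p is not given. fosl1b, the paralog of fosl1a, was at 0.6, 0.97 and 0.77 RPKM in hair cells, against 0.13, 0.09 and 0.12 RPKM in nsSCs (a log2 difference of 2.03, adjusted p = 5.97e-05). The entry zgc:153924, which the RefSeq names list as june, was at 0.97, 0.99 and 0.9 RPKM in hair cells, against 0.54, 0.88 and 0.94 RPKM in nsSCs, and was not called (adjusted p = 0.252). An entry with the symbol AL929435.1, which the table also carries as a second fosab feature, was at 120.13, 117.9 and 126.21 RPKM in hair cells, against 8.83, 8.15 and 6.09 RPKM in nsSCs (a log2 difference of 3.98, adjusted p = 1.94e-07). It is not counted among the 10 genes or in the Fos sums, shares and ratios above. By mean RPKM it lay above fosb, fosl1a and fosl2 in both cell types. Whether its reads overlap those of fosab was not tested. These 4 entries were chosen after their values were seen.

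Other leucine zipper factors were taken as a list of 58 symbols, of which 48 entries were tested. In this list 19 were called as higher in hair cells and 10 as higher in nsSCs, while 19 were not called, with a median log2 fold change of 0.58. These shares were 39.6% and 20.8%, beside 31% and 35.4% of all tested genes. The highest of the list in hair cells by mean level was atf4b, a factor of the integrated stress response. It was at 1153 ± 28.6 RPKM (SD, n = 3) against 373 ± 8.81 RPKM in nsSCs. jdp2b, the ortholog of a Jun dimerization protein that in mammals pairs with Jun and represses AP-1, was at 654.92, 653.19 and 644.76 RPKM in hair cells, against 13.58, 14.16 and 13.74 RPKM in nsSCs. Its log2 fold change of 5.55 (adjusted p = 7.41e-10, with a standard error of 0.04) was close to those of fosab and jun. Its paralog jdp2a, named after its values were seen, was at 0.717 ± 0.176 RPKM in hair cells against 0.887 ± 0.188 RPKM in nsSCs and was not called.

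xbp1, a factor of the unfolded protein response, was at 463 ± 14.2 RPKM in hair cells against 138 ± 5.68 RPKM in nsSCs (SD, n = 3). In the other direction, cebpd, a factor of the acute phase response in mammals, was at 42.8 ± 1.24 RPKM in hair cells against 267 ± 15.2 RPKM in nsSCs. atf5b was at 4.76 ± 0.734 RPKM in hair cells against 85.0 ± 3.54 RPKM in nsSCs, and nfe2l2a, whose product activates antioxidant genes, at 10.1 ± 0.321 RPKM in hair cells against 49.9 ± 1.88 RPKM in nsSCs. The log2 fold changes of these 3 genes ran from -4.14 for atf5b to -2.30 for nfe2l2a.

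By their calls and their median, other immediate early genes were not shifted as a group. Of 67 tested entries, 24 were called for hair cells and 23 for nsSCs, while 20 were not called, with a median log2 fold change of 0.06. These shares, 35.8% and 34.3%, were near those of all tested genes. The summed level of the list was higher in hair cells, at 3941 to 4120 RPKM against 2261 to 2382 RPKM in nsSCs. The highest of those called in hair cells by level were mcl1a, a survival gene of the Bcl2 family, at 920 ± 42.1 RPKM against 233 ± 18.8 RPKM in nsSCs (SD, n = 3), gadd45ba at 481 ± 13.7 RPKM against 135 ± 3.67 RPKM, and ier5 at 427 ± 10.8 RPKM against 62.8 ± 5.65 RPKM. Their log2 fold changes were 1.98, 1.83 and 2.77.

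Among those called higher in nsSCs, ctgfa, whose product is a growth factor bound to the matrix, was at 4.47 ± 0.249 RPKM in hair cells against 253 ± 7.57 RPKM in nsSCs. zfp36l1a, which encodes a protein that destabilizes AU-rich mRNAs, was at 18.8 ± 1.22 RPKM in hair cells against 105 ± 6.90 RPKM in nsSCs. klf2a, a zinc finger factor gene of endothelium among other tissues, was at 1.23 ± 0.355 RPKM in hair cells against 96.5 ± 3.04 RPKM in nsSCs. The highest of the genes that were not called were nfkbiab and sgk1, with log2 fold changes of 0.47 and 0.35.

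The EGR and NR4A paralogs, named after their values were seen, also differed among themselves. egr4 was at 84.23, 83.52 and 78.11 RPKM in hair cells, against 1.75, 1.72 and 2.05 RPKM in nsSCs, a log2 fold change of 5.41 (adjusted p = 9.56e-09, with a standard error of 0.09) beside 1.00 for egr1. egr2a was at 13.68, 13.78 and 12.18 RPKM in hair cells, against 0.04, 0 and 0.16 RPKM in nsSCs. The EGR proteins bind DNA through a shared set of zinc fingers. egr3 was at 0.217 ± 0.0252 RPKM in hair cells against 0.183 ± 0.0702 RPKM in nsSCs (SD, n = 3), and was not called. egr2b, a gene of myelinating glia, was listed at 0 in each hair cell sample, against 0.34, 0.62 and 0.69 RPKM in nsSCs.

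The orphan receptor genes nr4a1 and nr4a2b were at 55.0 ± 1.96 and 30.5 ± 1.29 RPKM in hair cells, against 2.90 ± 0.269 and 1.37 ± 0.117 RPKM in nsSCs (SD, n = 3), and both were called. nr4a3 was at 14.5 ± 1.09 RPKM in hair cells against 7.64 ± 0.367 RPKM in nsSCs, short of 2-fold (log2 fold change 0.92, adjusted p = 3.68e-05). dusp1, which encodes a MAP kinase phosphatase, and ier2 were not called, with log2 fold changes of -0.34 and -0.89. dusp1 was at 68.7 ± 1.40 RPKM in hair cells against 87.0 ± 2.28 RPKM in nsSCs, and ier2 at 28.8 ± 3.44 RPKM in hair cells against 53.1 ± 1.46 RPKM in nsSCs.

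**Figure D4:**
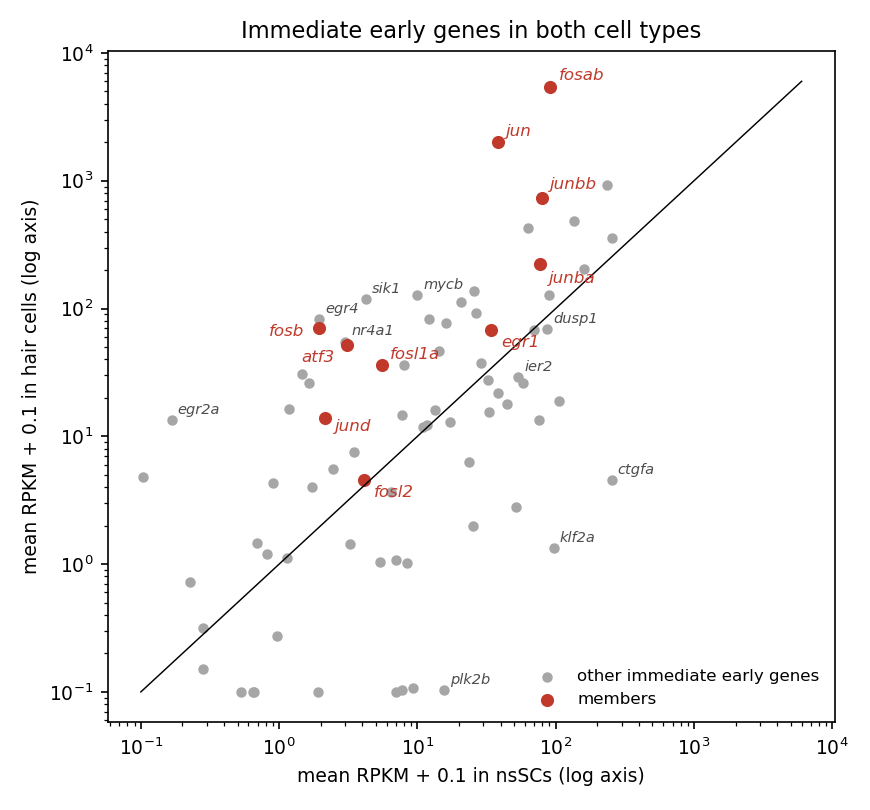
Mean RPKM + 0.1 in hair cells (vertical, log axis) against nsSCs (horizontal, log axis) for the 10 genes (red) and the 67 tested entries of other immediate early genes (grey), with the line of equal level and grey labels chosen after the values were seen. The red points lie above the line, fosl2 closest to it, while grey points lie on both sides, with ctgfa at 4.47 RPKM in hair cells against 253 RPKM in nsSCs.

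The kinases and factors upstream of AP-1 were called in both directions, more often for hair cells. Of 42 tested entries, 16 were called for hair cells and 7 for nsSCs, while 19 were not called (median log2 fold change 0.71). These shares were 38.1% and 16.7%, beside 31% and 35.4% of all tested genes, and their difference was not tested. map2k6, a kinase gene of the p38 branch, was at 88.4 ± 4.19 RPKM in hair cells against 28.1 ± 2.26 RPKM in nsSCs (SD, n = 3), a log2 fold change of 1.65. elk3 and mapk14b had log2 fold changes of 1.01 and 1.04. mapk12a and mapk7 were higher in nsSCs, with log2 fold changes of -3.57 and -1.75, and the ERK gene mapk3 was at 29.4 ± 1.31 RPKM in hair cells against 40.0 ± 3.06 RPKM in nsSCs and was not called.

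The genes of the JNK branch, whose kinases phosphorylate Jun proteins, were named after their values were seen. mapk9 and mapk8a were at 12.5 ± 0.819 and 7.05 ± 1.49 RPKM in hair cells, against 5.18 ± 0.732 and 2.09 ± 0.301 RPKM in nsSCs, with log2 fold changes of 1.27 and 1.69. Their paralog mapk8b was at 4.98 ± 1.39 RPKM in hair cells against 5.47 ± 0.203 RPKM in nsSCs and was not called. mapk10 was at 0.35 ± 0.156 RPKM in hair cells against 0.633 ± 0.120 RPKM in nsSCs. It was not called either (log2 fold change -0.76). The JNK kinase genes map2k4a and map2k4b were at 6.62 ± 0.872 and 7.42 ± 0.698 RPKM in hair cells, against 1.76 ± 0.333 and 1.64 ± 0.236 RPKM in nsSCs, and both were called. A further JNK kinase gene, map2k7, was not called. It was at 0, 0.47 and 0.41 RPKM in hair cells, against 0.02, 0 and 0.03 RPKM in nsSCs.

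Genes known from other systems as AP-1 targets were for the most part lower in hair cells. Of 23 tested entries, 4 were called for hair cells and 15 for nsSCs, while 4 were not called, and the median log2 fold change was -2.30. These shares were 17.4% and 65.2%, beside 31% and 35.4% of all tested genes. timp2a, an inhibitor gene of matrix proteases, was at 15.4 ± 1.66 RPKM in hair cells against 181 ± 6.76 RPKM in nsSCs (SD, n = 3). The galectin gene lgals3b was at 32.7 ± 0.671 RPKM in hair cells against 164 ± 6.50 RPKM in nsSCs, and vim at 18.7 ± 0.407 RPKM in hair cells against 40.2 ± 1.96 RPKM in nsSCs. The most abundant of the genes in the other direction were the autophagy receptor gene sqstm1 at 269 ± 9.17 RPKM in hair cells against 85.9 ± 4.45 RPKM in nsSCs, the glutathione synthesis gene gclc at 64.6 ± 2.89 RPKM against 10.9 ± 0.306 RPKM, and the metallothionein gene mt2 at 59.1 ± 5.30 RPKM against 11.7 ± 0.280 RPKM. The fourth, the adhesion receptor gene cd44b, named after its values were seen, was at 0.24, 0.14 and 0.14 RPKM in hair cells, against 0.09, 0 and 0 RPKM in nsSCs.

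Several genes of these lists are also transcribed in connective tissue and leukocytes, whose markers were higher in nsSCs. For comparison with the counts that follow, 31% of all tested genes were called for hair cells and 35.4% for nsSCs. All 13 tested markers of fibroblasts and matrix were higher in nsSCs, with summed levels of 34.4 to 39.3 RPKM in hair cells against 995 to 1014 RPKM in nsSCs. All 15 tested leukocyte markers were higher in nsSCs. The list summed to 15.0 to 17.4 RPKM in hair cells against 587 to 637 RPKM in nsSCs. Of the 18 leukocyte entries with values, tested or not, 8 were at 0 in every hair cell sample. Zeros were common in general, with 17308 to 18936 of all 31701 genes above 0 in a hair cell sample. Of 14 tested endothelial markers 12 were higher in nsSCs (85.7%). They summed to 2.57 to 3.03 RPKM in hair cells against 47.0 to 49.1 RPKM in nsSCs. All 10 tested red blood cell markers were higher in nsSCs, and they summed to 946 to 1020 RPKM in hair cells against 20530 to 24330 RPKM in nsSCs. Of 15 tested epithelial markers, 14 were higher in nsSCs (93.3%). The list summed to 789 to 827 RPKM in hair cells and 7962 to 8832 RPKM in nsSCs. It held keratins and also other genes, such as icn, anxa1a and epcam. icn alone was at 65.1 ± 1.67 RPKM in hair cells against 3701 ± 255 RPKM in nsSCs (SD, n = 3). Most of the hair cell sum of this list was krt5, which was not called. It was at 642 ± 17.9 RPKM in hair cells against 771 ± 41.9 RPKM in nsSCs. Of 18 tested glial and neuronal markers, 2 were called for hair cells (11.1%) and 10 for nsSCs (55.6%). Their sums were 598.5 to 639.0 RPKM in hair cells and 5049 to 5234 RPKM in nsSCs. Most of the nsSC sum was mbpa, at 133 ± 5.78 RPKM in hair cells against 4819 ± 101 RPKM in nsSCs (SD, n = 3). All 13 mitochondrially encoded genes were higher in nsSCs, with sums of 72990 to 78050 RPKM in hair cells and 359700 to 384500 RPKM in nsSCs. The part of these cells and transcripts in the difference of any AP-1 gene was not tested.

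Heat shock and unfolded protein genes moved in both directions. Of 29 tested entries, 11 were called for hair cells and 8 for nsSCs, while 10 were not called. These shares were 37.9% and 27.6%, beside 31% and 35.4% of all tested genes. The median log2 fold change was 0.02, with sums of 4409 to 4668 RPKM in hair cells against 1774 to 1958 RPKM in nsSCs. The inducible genes hsp70.2 and hsp70l were among those higher in hair cells. hsp70.2 was at 644.35, 672 and 615.05 RPKM in hair cells, against 9.65, 11.48 and 10.35 RPKM in nsSCs, a log2 fold change of 5.93. hsp70l was at 540.88, 565.53 and 528.72 RPKM in hair cells, against 0.36, 1.24 and 0.07 RPKM in nsSCs. The constitutive chaperone gene hspa8 was at 1369 ± 60.4 RPKM in hair cells against 365 ± 6.05 RPKM in nsSCs (SD, n = 3).

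The small heat shock genes hspb1 and hspb8 were high only in nsSCs among these samples. hspb1 was at 0, 0.01 and 0 RPKM in hair cells, against 182.07, 196.78 and 179.41 RPKM in nsSCs, and hspb8 at 1.83 ± 0.146 RPKM in hair cells against 90.2 ± 3.48 RPKM in nsSCs. Both cell types went through the same digestion and trituration, and no sample taken without them was measured. The part of handling in the levels of the AP-1 genes was not tested.

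**Figure D5:**
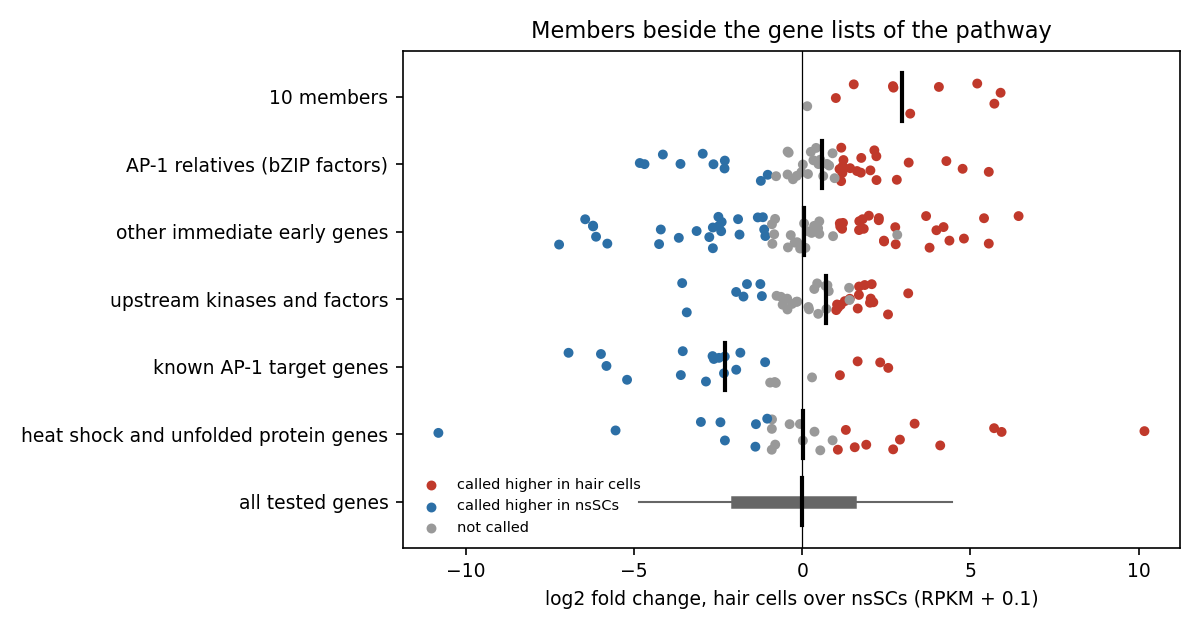
Log2 fold change, hair cells over nsSCs, of the 10 genes and of each tested entry of 5 gene lists, colored by the call (red higher in hair cells, blue higher in nsSCs, grey not called), with black bars for medians. The lowest line gives the 5th to 95th percentile (thin) and the quartiles (thick) of all 22374 tested genes. The median is 2.96 for the 10 genes, 0.06 for other immediate early genes and -2.30 for AP-1 targets.

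The genes whose pattern over the 6 samples lay closest to that of fosab, the most abundant of the 10, were sought among 7691 other genes of at least 10 RPKM in either cell type. By Euclidean distance of gene-centred log2(RPKM + 0.1) they were calm1b (0.07), a calmodulin gene, zgc:158258 (0.12), kif1aa (0.15), which encodes a kinesin motor, oaz2a (0.16), which encodes an inhibitor of polyamine synthesis, and an entry named THEM6 (0.17). kif1aa, for example, was at 65.72, 65.13 and 64.94 RPKM in hair cells, against 0.92, 0.96 and 1.05 RPKM in nsSCs. With 2 groups of close replicates, this measure found genes with nearly the same fold change as fosab.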

How the data were processed

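RNA of 3 hair cell and 3 nsSC samples was amplified with a low-input SMART-Seq kit and sequenced. Mapping by the authors was to GRCz10 in CLC Genomics Workbench, and they deposited RPKM values that are rounded to 2 decimals; HTSeq count is also named, and tool versions are not given in the sources used here. Of 35919 entries, 31701 Ensembl genes had values in all 6 samples and 4218 without values were left out. All 10 genes matched by symbol, and all 10 identifiers were found in the RefSeq names. RPKM carry no counts, and rounding hides the step of a single read, so that counting error is unknown.

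The test was limma 3.58.1 (R 4.3.3, statmod 1.5.0), fitted to log2(RPKM + 0.1) of the 22374 genes that averaged 0.1 RPKM or more in either cell type, using trended, robust moderation and Benjamini-Hochberg adjustment over all of them. Calls needed an adjusted p under 0.05 and a 2-fold change; an exact permutation test of 3 against 3 cannot go below 0.1. limma was used in place of the study's test of each gene alone, since it shares the estimate of the spread over genes. The fit was tested on simulated data. Python 3.11.15, numpy 2.4.6, pandas 2.3.3 and matplotlib 3.10.9 were used for the rest.

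The 10 genes and the 14 gene lists, written from general knowledge, were chosen with earlier results of these data known. Named were the 10 genes and, of each list, up to 3 called genes in each direction and 2 others by mean RPKM. For the most abundant of the 10, the 5 genes closest in pattern were named. One gene that this rule names is not reported here. Alternatives were pseudocounts of 1 and 0.01, no filter or 1 RPKM, no fold minimum or 4, 3 other scalings, plain moderation, a replicate block and leaving out each sample. Samples were grouped by their labels. Per the study, hair cells and nsSCs were collected from the same fish, but whether samples of the same number share fish is not stated. Each came from a pool, so that p-values measure the spread between pools. A planned description of protein and promoter sequences was not made.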

Additional observations from a re-analysis of the deposited data

How the results depend on the processing

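Of 170 values for the 10 genes under 17 alternatives, 162 kept their direction and their side of the threshold, 7 kept the direction and lost the call, and 1 changed direction. The filters, the fold minimums, plain moderation and the replicate block cannot change the log2 fold change of these genes. Under them the direction was fixed in advance, and only the call could change. Without a fold minimum no call could be lost, and at a minimum of 4 the calls followed from the main values. The calls of fosab, fosb, fosl1a, jun, junbb, jund and atf3 stood in all 17, as fosl2 stayed uncalled. egr1 lost its call in 6 alternatives (a pseudocount of 1 RPKM, a fold minimum of 4, median-ratio scaling, mitochondrial genes taken out, and without replicate 2 of either cell type) and junba at a fold minimum of 4. fosl2 turned to -0.32 with median-ratio scaling. Scaling moved all genes together: the median of all genes was -0.48 with median-ratio scaling and 0.49 with the same total RPKM, and fosab ran from 5.42 to 6.39 over them. Leaving out 1 sample moved fosab from 5.88 to 5.91 and egr1 from 0.97 to 1.02. Of all tested genes, those called higher in nsSCs numbered 4516 with a pseudocount of 1 RPKM and 5046 with a filter of 1 RPKM, and those called higher in hair cells 4008 at a fold minimum of 4, against 7917 and 6929 in the main setting. The deviations of samples of the same number were barely correlated over genes (-0.05, 0.02 and 0.001). A deviation shared by few genes would not show in such a correlation. fosb, jun, junba and junbb were highest in replicate 2 of both cell types. With the replicate block 9 of the 10 genes were again called higher in hair cells. Of all tested genes, 6953 were then called for hair cells and 7934 for nsSCs. RPKM carry no counts, so that the limit set by depth is unknown.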
